A study of Mus musculus with 12 samples.

Results

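The genes described here are 9 regulators of fuel choice and fat storage in the renal cortex: the pyruvate dehydrogenase (PDH) kinases Pdk1, Pdk2 and Pdk4, the lipid droplet coat genes Plin2, Plin4 and Plin5, the lipase gene Pnpla2, its inhibitor G0s2, and the secreted lipase inhibitor Angptl4. They were taken by gene symbol, each from a probe set that carries exactly 1 symbol. All 9 were measured, each by 1 such probe set, out of 19938 genes on the array. These members, and the gene lists used below, were chosen with earlier results of these data known. Their counts beside the share of all genes are therefore a description and not a test of the set. The 12 arrays hold 3 samples in each of 4 groups. GR-deficient mice (Pax8-Cre;nr3c1 flox/flox) and control mice (nr3c1 flox/flox) were studied with acute kidney injury (AKI), 24 hours after glycerol was injected into muscle. Healthy GR-deficient mice and healthy control mice formed a second cohort that was not injected, so AKI and cohort cannot be told apart. Nr3c1 encodes the glucocorticoid receptor (GR), and Pax8-Cre removes its floxed part in tubular epithelium. All 4 groups carry the floxed alleles, only the GR-deficient groups carry Cre, and other cells of the cortex keep the receptor. The labels do not give the age of the mice or say that each replicate came from its own animal. The spread behind every p-value is therefore that between arrays of a group, and part or all of it could be technical.

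PDH turns pyruvate from glucose or lactate into acetyl-CoA for the mitochondria, and the PDH kinases switch it off by phosphorylation. Proximal tubule cells run mainly on fatty acids. Surplus fatty acids are stored as triglyceride in lipid droplets, whose perilipin coat controls the access of lipases. In tissues such as liver, muscle and fat, glucocorticoids, fasting and the fatty acid receptor PPAR alpha are known to raise Pdk4, Angptl4 and several perilipins.

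Of the targeted gene, log2 values lay between 7.87 and 8.10 in GR-deficient AKI, 8.82 and 8.89 in control AKI, 8.13 and 8.21 in GR-deficient healthy mice and 9.48 and 9.65 in control healthy mice. No GR-deficient array reached the Nr3c1 value of a control array, whether with AKI or healthy. The tissue is labelled renal cortex, and proximal tubule markers were bright on all arrays: the summed level of 10 markers lay between 14.2 and 16.1 on the log2 scale. The kidney injury markers Lcn2 and Havcr1 were lower in GR-deficient AKI than in control AKI. Lcn2 lay between 11.08 and 12.11 in GR-deficient AKI and between 13.43 and 13.62 in control AKI. For Havcr1 the ranges were 9.53 to 11.11 and 12.73 to 12.92. The AKI groups thus differed in injury markers as well as genotype, and the part of this in the members' differences was not tested. A pair of arrays stood apart from the others. In control AKI replicate 1 the values of all genes had an SD of 1.88, less than on the other 11 arrays (1.96 to 2.06). Healthy GR-deficient replicate 1 held more of the injury marker Lcn2 (9.94) than the other arrays of its group (6.99 and 7.18). For the 9 members, calls that change without either array are given beside their result, and for genes of the lists they are not.

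Promoter windows of 300 bases (250 before to 50 after a start site, RefSeq, build GRCm38.p6) were found for 8 members, and none for Angptl4. They are shown for the genes with the most marked differences between the genotypes after AKI: Pdk4, Plin2 and Plin4, which rose together in control mice, and Pdk2, which fell. Capitals mark matches on either strand to AGAACA (a GR half-site), to AGGTCA (a nuclear receptor half-site), to a direct repeat of AGGTCA 1 base apart with at most 2 mismatches (the form PPAR binds), or to the E-box CACGTG.
Pdk4 (chr6:5496229-5496528, minus strand): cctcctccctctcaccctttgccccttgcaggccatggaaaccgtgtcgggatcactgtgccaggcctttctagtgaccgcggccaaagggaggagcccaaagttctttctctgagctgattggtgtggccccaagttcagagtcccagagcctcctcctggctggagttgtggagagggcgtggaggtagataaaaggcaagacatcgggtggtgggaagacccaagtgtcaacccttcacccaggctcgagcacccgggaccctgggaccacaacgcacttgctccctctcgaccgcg
Plin2 (chr4:86670010-86670309, minus strand): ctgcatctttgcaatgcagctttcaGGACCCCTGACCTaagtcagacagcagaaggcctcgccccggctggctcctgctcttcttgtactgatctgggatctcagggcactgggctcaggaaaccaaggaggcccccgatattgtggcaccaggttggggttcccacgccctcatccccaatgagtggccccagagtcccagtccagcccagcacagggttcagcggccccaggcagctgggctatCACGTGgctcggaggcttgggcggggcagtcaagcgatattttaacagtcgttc
Plin4 (chr17:56109733-56110032, minus strand): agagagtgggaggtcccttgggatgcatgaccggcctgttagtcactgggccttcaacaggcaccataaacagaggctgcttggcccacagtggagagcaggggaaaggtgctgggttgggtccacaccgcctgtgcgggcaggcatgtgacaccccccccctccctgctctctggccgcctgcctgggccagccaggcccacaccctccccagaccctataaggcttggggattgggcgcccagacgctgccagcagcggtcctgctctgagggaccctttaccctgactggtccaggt
Pdk2 (chr11:95041322-95041621, minus strand): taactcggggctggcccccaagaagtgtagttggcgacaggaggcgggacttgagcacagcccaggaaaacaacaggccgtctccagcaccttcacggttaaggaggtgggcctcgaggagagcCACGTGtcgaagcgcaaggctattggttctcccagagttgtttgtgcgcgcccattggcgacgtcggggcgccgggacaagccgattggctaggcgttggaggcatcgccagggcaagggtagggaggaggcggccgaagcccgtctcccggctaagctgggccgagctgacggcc
The Pdk4 and Plin4 windows hold none of these letters. In Plin2 the direct repeat, read on the opposite strand, spans positions -225 to -213 from the start site, and its exact half-site (-218 to -213) appears as TGACCT, and the E-box lies across the start site (-4 to 2). In Pdk2 the E-box lies at -126 to -121 in the window shown, which is that of the first of 2 listed start sites. The window at the second holds no match. Of 32851 windows of this length in the genome, 7.15% hold the E-box, 3.86% the direct repeat, 16.3% the AGGTCA half-site and 19.0% the AGAACA half-site. A pair of GR half-sites, AGAACA and TGTTCT with 3 bases between them and at most 2 mismatches, occurs in 1.84% of all windows and in none of the members'. Of the other members, the window at the second listed start site of Pdk1 holds AGAACA at 2 places, those of Plin5 hold AGGTCA, and those of Pnpla2 and G0s2 hold no match. A match is a description of letters, not of binding, and these windows leave out distant enhancers.

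After AKI in GR-deficient mice, 2 of the 9 members rose, Pdk4 and Angptl4, and 0 fell, against 4.64% of all genes in either direction and 3.29% higher. In control mice with AKI, Pdk4 and Plin2 had the 16th and 24th largest increase of all genes, Angptl4 and Plin4 rose less, and Pdk2 and Pdk1 fell. There 6 of 9 passed, against 28.7% of all genes: 4 were higher (13.6% of all genes) and 2 lower (15.1%). The median of the members' log2 differences after AKI was -0.11 in GR-deficient mice and 0.26 in control mice, beside -0.026 and 0.0013 over all genes. Since this is bulk tissue, fewer cells of a type and less RNA per cell cannot be told apart. Passing means an adjusted p under 0.05 in limma over all 19938 genes, and all differences are on the log2 scale with their standard error.

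**Figure D1:**
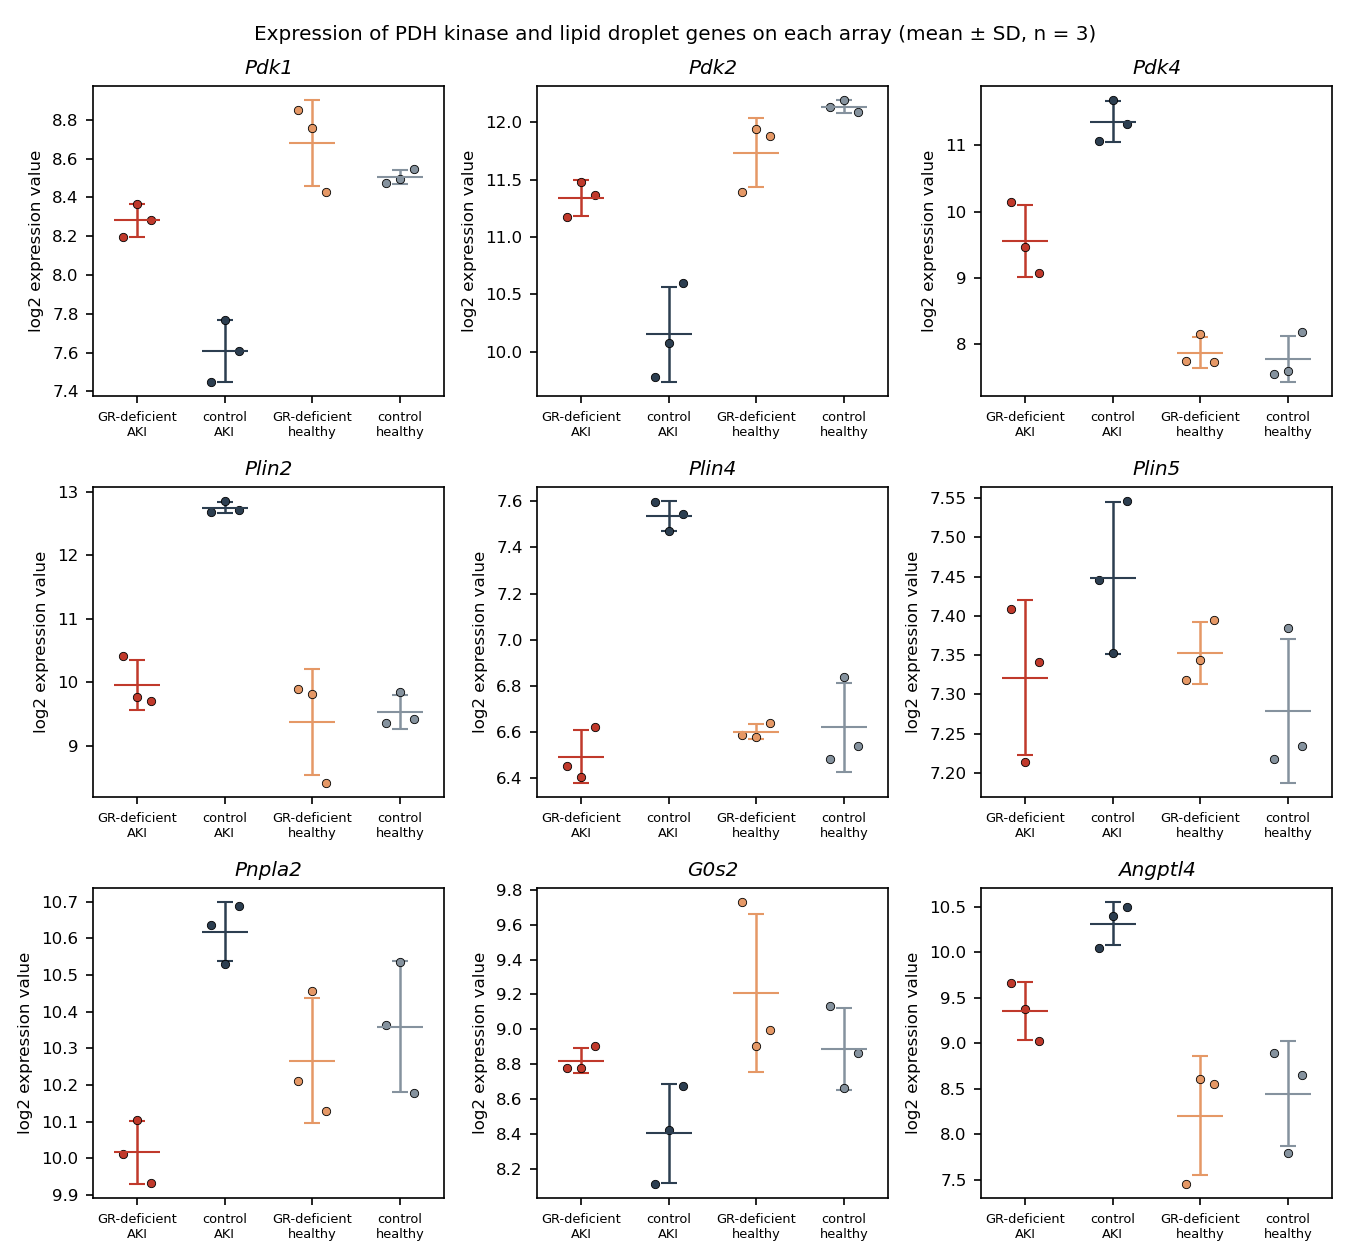
Log2 expression value (vertical axis, own range in each panel) of the 9 genes on each of the 12 arrays, by group; dots are arrays, the long bar is the group mean and the whiskers are the SD (n = 3). The control AKI arrays are the highest for Pdk4, Plin2, Plin4 and Angptl4 and the lowest for Pdk1 and Pdk2, and the GR-deficient AKI arrays lie nearer to the healthy arrays or between the others.

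Among the PDH kinases, Pdk4, the isoform induced by fasting in most tissues, moved against the other isoforms. Its log2 values were 10.15, 9.46 and 9.07 in GR-deficient AKI, 11.06, 11.68 and 11.33 in control AKI, 7.74, 8.14 and 7.73 in GR-deficient healthy mice and 7.55, 7.60 and 8.18 in control healthy mice. The AKI groups overlapped neither each other nor the healthy groups, and the healthy groups overlapped. AKI raised Pdk4 by 1.69 ± 0.25 in GR-deficient mice (3.23-fold, adjusted p = 0.00166) and by 3.58 ± 0.25 in control mice (11.96-fold, adjusted p = 1.02e-07). With AKI, the GR-deficient level was 3.47-fold below the control level (-1.79 ± 0.25, adjusted p = 0.000153). The test of the difference between the AKI responses gave -1.89 ± 0.35 (adjusted p = 0.00279), so the log2 rise in GR-deficient mice was 47.2% of that in control mice.

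Pdk2, an isoform expressed widely and strongly, fell after AKI in control mice. Its values were 11.17, 11.48 and 11.37 in GR-deficient AKI, 9.78, 10.07 and 10.60 in control AKI, 11.39, 11.94 and 11.88 in GR-deficient healthy mice and 12.13, 12.19 and 12.09 in control healthy mice. Control AKI was lowest with no overlap, whereas GR-deficient AKI overlapped GR-deficient healthy mice. The change with AKI was -0.39 ± 0.19 in GR-deficient mice (adjusted p = 0.277, not passed) and -1.99 ± 0.19 in control mice (a 3.96-fold decrease, adjusted p = 1.48e-06). Leaving out both arrays that stand apart, the GR-deficient change was -0.57 and passed (adjusted p = 0.0336). In AKI, Pdk2 was 2.28-fold higher in GR-deficient than in control mice (1.19 ± 0.19, adjusted p = 0.000438), and the responses differed (1.59 ± 0.26, adjusted p = 0.00134).

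Pdk1, known as a target of the hypoxia-inducible factor HIF-1, had values of 8.20, 8.37 and 8.28 in GR-deficient AKI, 7.45, 7.77 and 7.61 in control AKI, 8.85, 8.76 and 8.43 in GR-deficient healthy mice and 8.47, 8.49 and 8.55 in control healthy mice. Both AKI groups lay below both healthy groups with no overlap, and control AKI was lowest. The change was -0.40 ± 0.12 in GR-deficient mice (adjusted p = 0.0831, not passed) and -0.90 ± 0.12 in control mice (adjusted p = 5e-05). The change in GR-deficient mice passed in 6 of 22 alternative analyses (adjusted p from 0.01 to 0.313 over all), among them without healthy GR-deficient replicate 3 (-0.52, adjusted p = 0.025), without control AKI replicate 1 (0.047) and with array quality weights (0.01). In AKI, GR-deficient mice had more Pdk1 than control mice (0.67 ± 0.12, adjusted p = 0.00136). The responses themselves differed by 0.50 ± 0.17, which did not pass (adjusted p = 0.0815, and 0.0465 without healthy GR-deficient replicate 1).

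Among the droplet coats, Plin2 showed the widest gap between the genotypes. Plin2 is the perilipin of most tissues outside fat, and its protein is stabilised by stored lipid. Its values were 10.41, 9.77 and 9.70 in GR-deficient AKI, 12.68, 12.85 and 12.72 in control AKI, 9.90, 9.81 and 8.41 in GR-deficient healthy mice and 9.35, 9.84 and 9.41 in control healthy mice. The control AKI arrays stood above all others, and the remaining groups overlapped. AKI gave a difference of 0.59 ± 0.31 in GR-deficient mice (adjusted p = 0.335, not passed) and raised Plin2 by 3.21 ± 0.31 in control mice (9.28-fold, adjusted p = 1.8e-06). With AKI the GR-deficient level was 6.91-fold below the control level (-2.79 ± 0.31, adjusted p = 2.61e-05), which ranked 4 from the bottom among all 19938 genes. The responses differed by -2.63 ± 0.43 (adjusted p = 0.00136). The GR-deficient change of 0.59 rests in large part on the low healthy replicate 3 (8.41): without it the change was 0.11 (adjusted p = 0.826).

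Plin4, a coat of small droplets known mainly from fat and muscle, was also highest in control AKI, with smaller differences. Its values were 6.45, 6.40 and 6.62 in GR-deficient AKI, 7.60, 7.47 and 7.54 in control AKI, 6.59, 6.58 and 6.64 in GR-deficient healthy mice and 6.48, 6.84 and 6.54 in control healthy mice. Again only the control AKI arrays were set apart, and the other 3 groups overlapped. The difference after AKI was -0.11 ± 0.11 in GR-deficient mice (adjusted p = 0.657, not passed) and 0.92 ± 0.11 in control mice (1.89-fold, adjusted p = 1.65e-05). In AKI, GR-deficient mice had 2.06-fold less than control mice (-1.04 ± 0.11, adjusted p = 1.96e-05), and the responses differed by -1.03 ± 0.16 (adjusted p = 0.000802).

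Plin5, which ties droplets to mitochondria in oxidative tissues, had log2 values within 7.21 to 7.55 over all 12 arrays, and the 4 groups overlapped. It passed in none of the 5 comparisons (adjusted p from 0.259 to 0.913). The interval of its genotype difference in AKI was -0.34 to 0.086 (95%), which bounds the size of a difference but does not show equality. Plin4 and Plin5 are neighbours on chromosome 17 (56100587 to 56109948 and 56111597 to 56117606, GRCm38.p6).

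Of the lipase genes, Pnpla2 encodes ATGL, which takes the first fatty acid off stored triglyceride. Its values were 10.01, 10.11 and 9.93 in GR-deficient AKI, 10.64, 10.53 and 10.69 in control AKI, 10.21, 10.46 and 10.13 in GR-deficient healthy mice and 10.36, 10.54 and 10.18 in control healthy mice. GR-deficient AKI was lowest and control AKI highest, with no overlap between them, while control AKI overlapped healthy control mice. Neither change after AKI passed (-0.25 ± 0.12 in GR-deficient mice, adjusted p = 0.283, and 0.26 ± 0.12 in control mice, adjusted p = 0.132), but in AKI the GR-deficient level was lower than the control level (1.52-fold, -0.60 ± 0.12, adjusted p = 0.00248). The difference between the responses, -0.51 ± 0.17, did not pass (adjusted p = 0.0672). It passed in 6 of 21 alternative analyses, among them without control healthy replicate 2 (adjusted p = 0.0477).

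G0s2 encodes the protein inhibitor of ATGL. Its values were 8.78, 8.78 and 8.91 in GR-deficient AKI, 8.11, 8.42 and 8.68 in control AKI, 9.73, 8.90 and 8.996 in GR-deficient healthy mice and 9.13, 8.66 and 8.86 in control healthy mice. The highest value was that of the healthy GR-deficient array that stands apart, and the control AKI arrays lay below the GR-deficient AKI arrays but overlapped healthy control mice. No comparison passed in the reported model: the change after AKI was -0.39 ± 0.20 in GR-deficient mice (adjusted p = 0.323) and -0.48 ± 0.20 in control mice (adjusted p = 0.0901), and the change in control mice passed without healthy GR-deficient replicate 1 (0.0239) or control AKI replicate 3 (0.0444). Without the high healthy GR-deficient replicate 1 the change in GR-deficient mice was -0.13 (adjusted p = 0.768). With array quality weights both the change in control mice (adjusted p = 0.00597) and the higher level in GR-deficient than in control AKI (0.36, adjusted p = 0.03) passed.

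Angptl4 encodes a secreted inhibitor of lipoprotein lipase, the enzyme that frees fatty acids from circulating triglyceride. Its values were 9.66, 9.38 and 9.03 in GR-deficient AKI, 10.05, 10.40 and 10.49 in control AKI, 7.45, 8.61 and 8.56 in GR-deficient healthy mice and 8.89, 7.80 and 8.65 in control healthy mice. The AKI groups lay above the healthy groups and apart from each other, and the healthy groups overlapped widely. AKI raised it by 1.15 ± 0.30 in GR-deficient mice (2.22-fold, adjusted p = 0.045) and by 1.87 ± 0.30 in control mice (3.64-fold, adjusted p = 0.000244). The GR-deficient level was lower than the control level in AKI (1.94-fold, -0.96 ± 0.30, adjusted p = 0.0423). The rise in GR-deficient mice was lost in 11 of 22 alternative analyses (adjusted p from 0.0164 to 0.221). Those that leave out 1 array were without GR-deficient AKI replicate 1 (0.221) or 2 (0.121), control AKI replicate 2 (0.0606), healthy GR-deficient replicate 1 (a rise of 0.77, 0.164) or 2 (0.053), or healthy control replicate 3 (0.0609). The genotype difference was lost in 8 of 22 (adjusted p from 0.00214 to 0.158). Those were, by array, without GR-deficient AKI replicate 2 (0.0978) or 3 (0.158), control AKI replicate 2 (0.115) or 3 (0.1), or healthy control replicate 3 (0.0529). The responses differed by -0.72 ± 0.43, which did not pass (adjusted p = 0.348), whereas without both arrays that stand apart the value was -1.23 and passed (adjusted p = 0.0474).

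**Figure D2:**
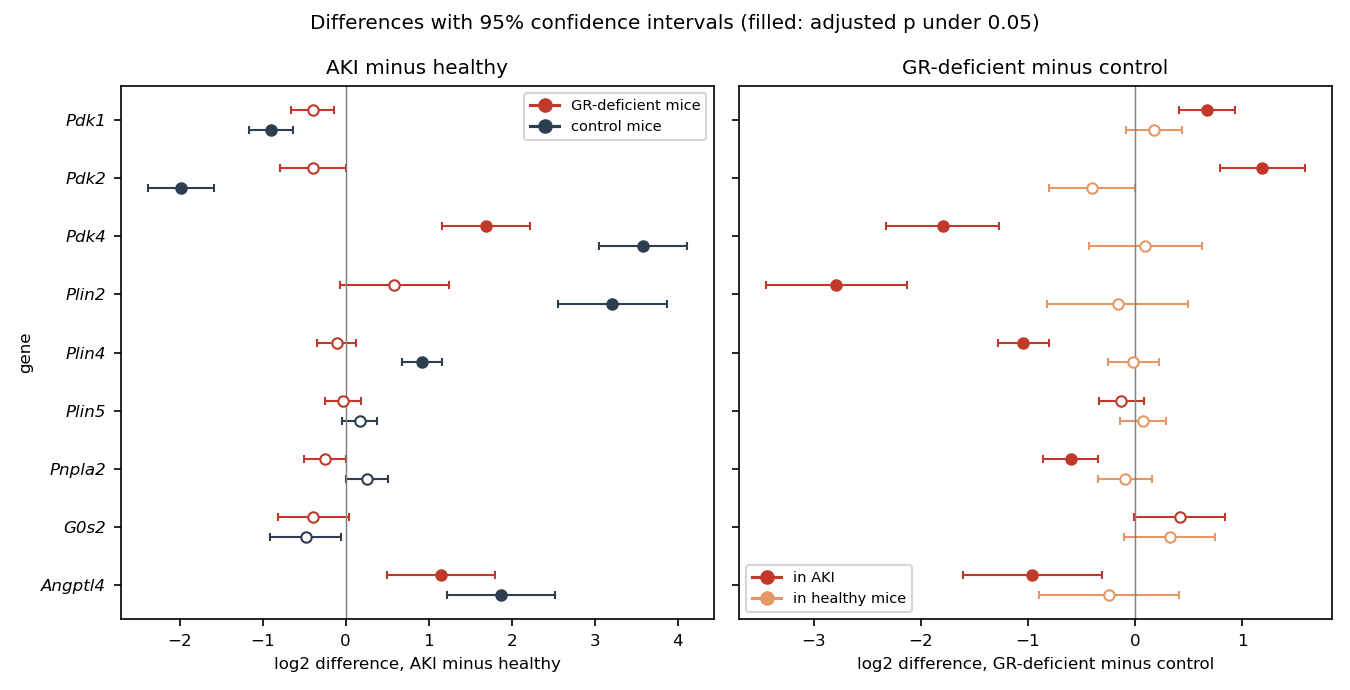
Log2 differences (horizontal axis) of the 9 genes with 95% confidence intervals from limma; left, AKI minus healthy in GR-deficient mice (upper point of each gene) and control mice (lower point); right, GR-deficient minus control in AKI (upper) and in healthy mice (lower). Filled points passed an adjusted p of 0.05; the healthy points on the right are all open, and Plin2 has the largest genotype difference in AKI of the 9 (-2.79).

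Between healthy GR-deficient and healthy control mice no member passed in limma (0 of 9, against 0.145% of all genes). An unadjusted limma p under 0.05 was found for 1 of 9, Pdk2 (0.0481), and for 2124 of all 19938 genes, so 1 member does not stand out. The Pdk2 values of these groups did not overlap, and the share of all genes without overlap was not counted. The differences ran from -0.40 for Pdk2 to 0.32 for G0s2. For Pdk4 the 95% interval was -0.43 to 0.62, and for Plin2 it was -0.82 to 0.49, so smaller differences could be missed.

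With AKI, by contrast, 7 of 9 members passed between the genotypes, against 17.4% of all genes. The 2 that were higher in GR-deficient mice were Pdk1 and Pdk2 (10.0% of all genes), and the 5 that were lower were Pdk4, Plin2, Plin4, Pnpla2 and Angptl4 (7.34%). In the test of the interaction 4 of 9 passed, against 11.5% of all genes: Pdk2 was higher (7.39% of all genes) and Pdk4, Plin2 and Plin4 were lower (4.06%). The comparisons after AKI share their control AKI arrays, so the values of one are not independent of another.

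The genes around the PDH kinases mostly fell in control mice with AKI, as Pdk1 and Pdk2 did. In a list of 13 measured genes of the PDH complex, its phosphatases, pyruvate import and lactate dehydrogenase, 0 rose and 1 fell after AKI in GR-deficient mice, and 0 rose and 11 fell in control mice. Over all genes 4.64% passed either way in GR-deficient mice, and 13.6% rose and 15.1% fell in control mice. The median difference of the list was -0.27 in GR-deficient mice and -0.66 in control mice. Ldhb, a lactate dehydrogenase subunit, was the gene that fell in GR-deficient mice (-0.39 ± 0.10, adjusted p = 0.045). The decreases in control mice with the smallest p were those of Pdp2 (-1.85 ± 0.16), Pdpr (-1.30 ± 0.14), Pcx (-1.28 ± 0.14) and Pdk3 (-1.43 ± 0.17), with adjusted p from 8.84e-07 to 1.22e-05. Pdp2 encodes a PDH phosphatase, which opposes the kinases, and Pdpr a regulatory subunit of PDH phosphatase. Pcx encodes pyruvate carboxylase and Pdk3 a further PDH kinase. The other phosphatase gene, Pdp1, did not pass there (0.11 ± 0.10, adjusted p = 0.534). In AKI, 8 of the 13 were higher and 0 lower in GR-deficient than in control mice (10.0% and 7.34% of all genes), led by Pdp2 (1.12 ± 0.16, adjusted p = 0.000249).

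**Figure D3:**
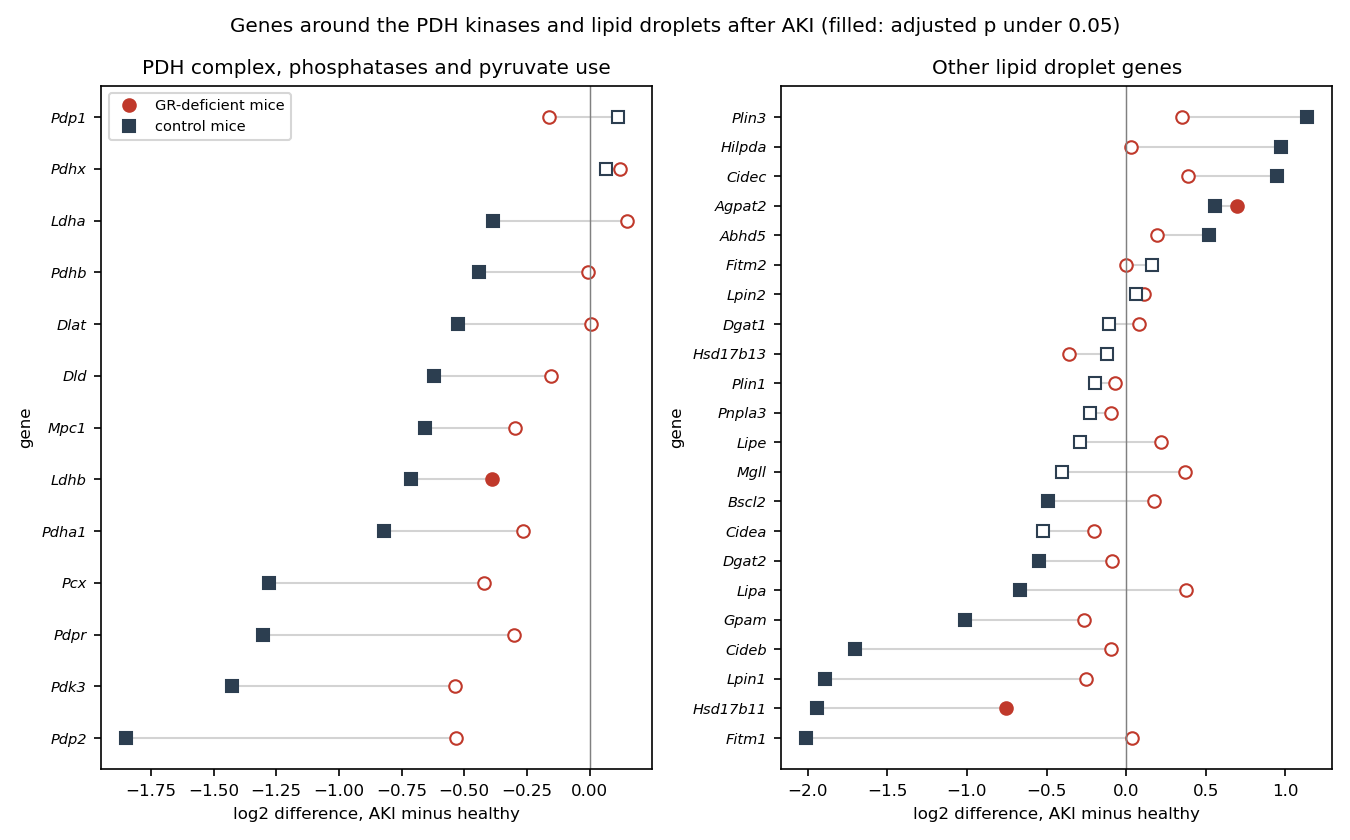
Log2 difference, AKI minus healthy (horizontal axis), of 13 genes of the PDH complex and pyruvate use (left) and 22 other lipid droplet genes (right); circles are GR-deficient mice, squares control mice, and filled symbols passed an adjusted p of 0.05. On the left 11 squares are filled and all 11 lie below 0; on the right 5 filled squares lie above 0 and 8 below.

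Other lipid droplet genes moved in both directions. Of 22, 1 rose and 1 fell after AKI in GR-deficient mice (4.64% of all genes either way). In control mice 5 rose and 8 fell (13.6% and 15.1% of all genes). The medians were 0.034 in GR-deficient mice and -0.26 in control mice. In GR-deficient mice the acyltransferase Agpat2 rose (0.70 ± 0.10, adjusted p = 0.00153) and Hsd17b11 fell (-0.76 ± 0.17, adjusted p = 0.0202). Plin3 (1.14 ± 0.10), the perilipin of nascent droplets, and Hilpda (0.98 ± 0.10), a droplet protein induced by hypoxia that inhibits ATGL, rose in control mice. Cideb (-1.71 ± 0.17), of the family that enlarges droplets, and the droplet dehydrogenase Hsd17b11 (-1.94 ± 0.17) fell, all with adjusted p from 7.76e-07 to 2.96e-06. In AKI, 5 of 22 were higher and 3 lower in GR-deficient than in control mice (10.0% and 7.34% of all genes). Hilpda (-0.80 ± 0.10) and Plin3 (-0.64 ± 0.10) were lower, as Plin2 was, and Fitm1 (1.81 ± 0.24), which aids droplet formation, and Cideb (1.18 ± 0.17) were higher, with adjusted p from 6.38e-05 to 0.00054. Of 7 measured genes of lipoprotein lipase and its partners, 1 rose and 0 fell in GR-deficient mice (4.64% of all genes either way). In control mice 1 rose and 3 fell (13.6% and 15.1% of all genes). The lipase itself, Lpl, the enzyme that ANGPTL4 inhibits, fell in control mice (-1.55 ± 0.22, adjusted p = 7.41e-05). In AKI, 2 of the 7 were higher and 0 lower in GR-deficient than in control mice (10.0% and 7.34% of all genes). These were Vldlr (0.69 ± 0.10, adjusted p = 0.000241) and Lpl (0.76 ± 0.22, adjusted p = 0.0275). The interaction passed for Vldlr (0.99 ± 0.14, adjusted p = 0.000525) but not for Lpl (0.89 ± 0.31, adjusted p = 0.0841).

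Other PPAR alpha targets also moved in both directions. Of 22 measured, 4 rose and 1 fell in GR-deficient mice, where 4.64% of all genes passed either way. In control mice 4 rose and 5 fell, against 13.6% and 15.1% of all genes. In AKI, 7 were higher and 1 lower in GR-deficient than in control mice, against 10.0% and 7.34%. Cyp4a14, a fatty acid hydroxylase, rose in both genotypes (2.82 ± 0.56 in GR-deficient and 2.23 ± 0.56 in control mice, adjusted p = 0.0109 and 0.00723). Fabp1, a fatty acid carrier, also rose in both (1.21 ± 0.19 and 0.54 ± 0.19, adjusted p = 0.00302 and 0.0471) and was higher in GR-deficient than in control AKI (1.30 ± 0.19, adjusted p = 0.000283). Cyp4a14 was higher there as well (1.88 ± 0.56, adjusted p = 0.0322). The interaction passed for neither Cyp4a14 (adjusted p = 0.72) nor Fabp1 (0.148). Over the list, 2 of 22 were higher and 1 lower in the interaction (7.39% and 4.06% of all genes). These were Acot3 (1.86 ± 0.26, adjusted p = 0.000439), Hadhb (0.57 ± 0.17, 0.0439) and, lower, Fgf21 (-0.88 ± 0.17, 0.00317). The oxidation enzyme Acadm fell in both genotypes (-0.52 ± 0.10 in GR-deficient and -0.96 ± 0.10 in control mice, adjusted p = 0.0121 and 6.59e-06). A list of 14 transcription factors and cofactors of these pathways (nuclear receptors, their coactivators, FOXO and HIF factors) had 0 that rose and 0 that fell in GR-deficient mice, against 4.64% of all genes. In control mice 2 rose and 10 fell, against 13.6% and 15.1%. Ppargc1a, a coactivator of mitochondrial genes, fell there (-1.50 ± 0.19, adjusted p = 1.98e-05), and so did Nr3c1 itself, which is on the list (-0.69 ± 0.10, adjusted p = 6.56e-05).

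Genes that glucocorticoids are known to induce were compared as well. Of 9 measured, 0 were higher and 6 lower in GR-deficient than in control AKI (10.0% and 7.34% of all genes), with the smallest p for Fkbp5 (-1.62 ± 0.26, adjusted p = 0.000539) and Zbtb16 (-1.30 ± 0.23, adjusted p = 0.00127). Between AKI and healthy mice 0 rose and 1 fell in GR-deficient mice (4.64% of all genes either way), and 4 rose and 3 fell in control mice (13.6% and 15.1%). Of 16 other HIF targets, 3 were higher and 4 lower in GR-deficient than in control AKI, against 10.0% and 7.34% of all genes. Adm, the vasodilator peptide adrenomedullin (-1.47 ± 0.14, adjusted p = 8.14e-06), was lower, and the carbonic anhydrase Car9 was higher (1.07 ± 0.15, adjusted p = 0.000147).

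Summed levels of proximal tubule, distal nephron, podocyte, neutrophil and macrophage markers did not overlap between the AKI groups. Those of adipocyte, skeletal muscle, endothelium and adrenal markers did. The part of these cell types in the members' results was not tested. Over all genes, 13.6% rose and 15.1% fell with AKI in control mice, and 4.64% passed either way in GR-deficient mice. Between the genotypes in AKI, 10.0% of all genes were higher and 7.34% lower in GR-deficient mice. The summed level of 10 proximal tubule markers was 15.5 to 15.7 in GR-deficient AKI, 14.2 to 14.6 in control AKI, 15.6 to 16.1 in GR-deficient healthy mice and 16.1 in control healthy mice, the same order of groups as for Pdk2, and all 10 fell with AKI in control mice. Sums of 5 distal nephron markers were 14.3 to 14.4 in GR-deficient AKI, 13.6 to 13.8 in control AKI, 14.5 to 14.7 in GR-deficient healthy mice and 14.4 to 14.5 in control healthy mice, the order of the group means of Pdk1 and G0s2. Of these 5, 3 fell with AKI in control mice, among them the salt transporter gene Slc12a1 (-2.89 ± 0.18), and 3 were higher in GR-deficient than in control AKI. For 12 neutrophil markers the sums were 9.17 to 9.46 in GR-deficient AKI, 9.98 to 10.4 in control AKI and 9.06 to 9.23 over the healthy groups. Of these 12, 8 rose with AKI in control mice and 7 were lower in GR-deficient than in control AKI. Macrophage sums were 11.0 to 11.5 in GR-deficient AKI, 11.9 to 12.1 in control AKI and 10.9 to 11.1 over the healthy groups. Of those 10 markers Cd68 and Cd14 rose in control AKI (2.85 and 3.92) and Csf1r fell (-0.85), while Adgre1 and the 3 C1q chains did not pass. Adipocyte sums, which bear on Plin4 as a gene of fat, overlapped between GR-deficient AKI (9.75 to 10.6) and control AKI (10.1 to 10.3). They were 9.53 to 9.95 in GR-deficient healthy mice and 9.48 to 10.6 in control healthy mice. Fabp4 was the brightest of the 7 markers (mean 9.12 in GR-deficient AKI and 9.37 in control AKI), so it weighs most in the sum. The fat hormone gene Adipoq passed in none of the 5 comparisons, and of 7 adipocyte markers only Cidec rose in control AKI (0.95 ± 0.26, adjusted p = 0.0116). Skeletal muscle sums were 9.87 to 9.98 in GR-deficient AKI and 9.72 to 10.1 in control AKI. They were 10.1 to 10.2 in GR-deficient healthy mice and 9.95 to 10.1 in control healthy mice. Of 10 muscle markers 0 rose and 1 fell with AKI in each genotype. In control mice the marker that fell was Pvalb (-2.03 ± 0.25, adjusted p = 1.78e-05).

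For the 6 members whose group means spanned at least 1 on the log2 scale, the genes with the most similar pattern were sought. Likeness was the root mean square difference of values centred on each gene's mean over the 12 arrays, so 0 is an identical pattern. Genes with predicted or placeholder names and microRNA and snoRNA genes were skipped, both as neighbours and in the medians. Nearest to Pdk4 were Srxn1 (0.249), Fosl1 (0.280) and Hmox1 (0.342), against a median of 1.51 over the genes kept. Nearest to Plin2 were Sprr2f (0.463), Arg2 (0.477) and Ifrd1 (0.499), against a median of 1.43. Plin4 was nearest to Sav1 (0.129), Itgb3 (0.131) and Fgf21 (0.142), with a median of 0.453. Angptl4 was nearest to Slc16a1 (0.325), Plp2 (0.330) and Arpc1b (0.334), with a median of 0.947. Among the kinases that fell, Pdk2 was nearest to Fads2 (0.126), Mgam (0.134) and Cyp2j11 (0.143), with a median of 0.801, and Pdk1 to Ndufa6 (0.0820), Ebp (0.0968) and Zeb2os (0.103), with a median of 0.465.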

How the data were processed

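Total RNA from freshly dissected renal cortex was amplified and hybridised to 12 Affymetrix gene arrays, 3 per group. The authors deposited log2 expression values, and the submitters' processing notes name RMA and the R packages affy and oligo, without versions. The log base is not stated and was taken from the range of the values (at most 14.9). Groups and replicate numbers come from the sample titles. RMA already normalizes between arrays and compresses differences of dim genes.

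Of 35556 probe sets, 21789 carried exactly 1 gene symbol, 1621 several and 12146 none. The brightest 1-symbol probe set per gene was kept, which left 19938 genes. The model (limma 3.58.1, R 4.3.3) had 4 group means (8 residual and 6.26 prior degrees of freedom), and its two-sided tests used Benjamini-Hochberg adjustment over all genes within each of 5 comparisons and a threshold of 0.05. Precision is limited by the number of arrays. The fit was tested on simulated data.

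The members and the gene lists were chosen with earlier results of these data known. All members are named. From each list up to 4 passing genes with the smallest p in a comparison could be named, and single marker genes are named beside their sums. Pdp1, which did not pass, is named beside Pdp2. Summed marker levels are log2 of summed linear values. Alternatives were 2 other normalizations, array weights, another prior, fits of the compared groups alone, a filter on dim genes, all probe sets, averaged probe sets, the replicate number as a block and leaving out each array. Leaving out both arrays that stand apart was added after the data were seen. Raw scans were not used here.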

Additional observations from a re-analysis of the deposited data

Results flagged for a closer look

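In 4 of the 9 genes the response to AKI differed between the genotypes by the test of the interaction (limma, adjusted over all genes). The values are the GR-deficient minus the control response: 1.59 for Pdk2 (adjusted p = 0.00134), -1.89 for Pdk4 (adjusted p = 0.00279), -2.63 for Plin2 (adjusted p = 0.00136) and -1.03 for Plin4 (adjusted p = 0.000802). These 4 passed in each of 21 alternative analyses.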

How the results depend on the processing

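Over the alternatives, Pdk4, Plin2 and Plin4 kept their direction and call in control mice after AKI, between the genotypes in AKI and in the interaction, and so did Pdk2, while Angptl4 is the member whose calls changed most often. Of the 9 members, the number passing when 1 array was left out was 1 to 3 after AKI in GR-deficient mice (2 with all arrays), 6 to 7 in control mice, between genotypes in healthy mice 0, in AKI 6 to 7, and in the interaction 4 to 5. In GR-deficient mice it was 1 with the trended robust prior, with the compared groups alone, with all probe sets tested and with the replicate block, and 4 with array quality weights. In each fit with 1 passing, the call lost was that of Angptl4. The replicate block also ended the call of Angptl4 between the genotypes in AKI (adjusted p = 0.0654), and the block changed no other member's call. Same-numbered arrays of different groups had correlations of -0.41 to 0.252 (18 pairs, median -0.019). Arrays with different numbers had -0.354 to 0.454 (36 pairs, median 0.034), and 3 of 12 arrays correlated best with their own number. With 3 arrays a group, this check cannot show whether same-numbered samples share anything, and the labels do not say what the number means.

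Differences that turned sign did not pass in any analysis. Leaving out 1 array, Plin5 after AKI in GR-deficient mice ran from -0.075 to 0.022 and G0s2 in the interaction from -0.060 to 0.35. Between genotypes in healthy mice, the ranges were -0.040 to 0.30 for Pdk4, -0.43 to 0.32 for Plin2, -0.088 to 0.091 for Plin4 and -0.57 to 0.13 for Angptl4. With array quality weights that difference was 0.019 for Pnpla2 and 0.026 for Angptl4, and without both arrays that stand apart it was 0.13 for Angptl4. The cause was not tested. The number of all genes passing, the background of the members' counts, moved by more than 1.5 times. After AKI in GR-deficient mice it ran from 277 to 3196 (926 as reported), and between healthy genotypes from 10 to 301 (29). With array quality weights it was 9648 in control mice after AKI (5715), 7000 between genotypes in AKI (3460) and 4905 in the interaction (2283). With 3 arrays a group, small differences such as those of Plin5 and G0s2 may be missed. For passing genes of the pathway lists, 317 of 3268 alternative results lost the call and 0 changed sign, so list calls near the threshold are uncertain.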
